A study of Mus musculus with 4 samples.

Results

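Foxp3 and 9 other genes known from regulatory T cells were followed in 4 RNA-seq libraries of mouse CD4 T cells. The 10 genes (Foxp3, Ikzf2, Ikzf4, Plagl1, Lrrc32, Nrp1, Gpr83, Il1rl1, Ebi3 and Capg) were chosen by name from 23284 gene symbols, and each had a single entry in the deposited tables. CD4 T cells from the spleens of BALB/c mice (an inbred strain) were grown in Th1 culture, which favours interferon-gamma producers, with 15 ng/ml IL-2 and 10 ng/ml IL-12. The length of culture is given as 4 days in one place and as 5 days in another. A cell sorter then separated a CCR7hiCD137lo from a CCR7loCD137hi population, with 2 libraries of each, numbered 1 and 2. All 4 libraries share the strain, organ and culture, and the sort is the difference between the groups. The labels name no sort marker other than CCR7 and CD137, and they do not say whether the numbered libraries came from separate mice or cultures, so p-values here cover just the spread among the 4 libraries, and that spread may be technical.

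Regulatory T cells are a suppressive lineage of CD4 T cells, and the forkhead factor Foxp3 defines them and is required for their function. Ikzf2 (Helios) and Ikzf4 (Eos) are Ikaros-family zinc finger factors that work with Foxp3, and GARP, encoded by Lrrc32, holds latent TGF-beta on the surface of activated regulatory T cells. CCR7 is a homing receptor for lymph nodes. CD137, encoded by Tnfrsf9, is a costimulatory receptor of recently activated T cells that activated regulatory T cells are also known to carry. The study asked how the sorted populations differ, in work on acetyl-CoA carboxylase 1 and the memory potential of CD4 T cells.

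Levels are FPKM, the fragments assigned to a gene divided by transcript length and library depth, so levels of different genes can be set side by side. Depth, estimated from the steps of low FPKM values, was about 20600000 and 13000000 fragments in CCR7hiCD137lo replicates 1 and 2 and about 11600000 and 6310000 in CCR7loCD137hi replicates 1 and 2. A transcript of 1 kb with 3 fragments would stand at 0.146 FPKM in the deepest and 0.475 FPKM in the shallowest library, which covers counting error only. The sort genes followed the labels: Tnfrsf9 was at 0.961 and 6.25 FPKM in CCR7hiCD137lo against 158.2 and 183.8 FPKM in CCR7loCD137hi, and Ccr7 was at 93.4 and 118.4 FPKM against 39.6 and 38.2 FPKM. T cell markers were shared, with the 8 pan T and CD4 markers summing to 1691 and 1753 FPKM in CCR7hiCD137lo and to 1590 and 1891 FPKM in CCR7loCD137hi. Pan T genes make up most of that sum. Cd4 itself, named after its values were seen, was at 124.5 and 181.9 against 95.6 and 175.7 FPKM. Its groups overlapped, and it was lowest in CCR7loCD137hi replicate 1.

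Promoter sequence is shown for 3 members, Foxp3 and Il1rl1, which were higher in both CCR7loCD137hi libraries, and Nrp1, which was not. Each run lies before a RefSeq start on GRCm38.p6 (mm10), the C57BL/6J reference and not the BALB/c genome of these mice, and is written on the plus strand, 5′ to 3′. Capitals mark matches to 8 short motifs searched on both strands. The runs are chrX:7580233-7580482 for Foxp3, chr1:40439379-40439626 for Il1rl1 and chr8:128358823-128359072 for Nrp1. The Foxp3 run precedes the later of its 2 RefSeq starts and lies within the Foxp3 entry, which begins at 7579676. The window before the entry's own start, chrX:7579426-7579675, is not shown and had no match to the motifs.
Foxp3: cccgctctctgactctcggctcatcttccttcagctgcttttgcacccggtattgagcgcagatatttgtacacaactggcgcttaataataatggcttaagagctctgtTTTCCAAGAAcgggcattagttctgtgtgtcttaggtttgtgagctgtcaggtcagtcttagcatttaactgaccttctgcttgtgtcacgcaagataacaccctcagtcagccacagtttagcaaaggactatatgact
Il1rl1: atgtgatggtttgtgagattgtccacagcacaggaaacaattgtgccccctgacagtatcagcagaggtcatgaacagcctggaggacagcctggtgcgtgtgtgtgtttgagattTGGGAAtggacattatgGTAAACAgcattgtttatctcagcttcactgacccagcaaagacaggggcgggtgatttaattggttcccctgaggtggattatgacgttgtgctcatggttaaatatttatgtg
Nrp1: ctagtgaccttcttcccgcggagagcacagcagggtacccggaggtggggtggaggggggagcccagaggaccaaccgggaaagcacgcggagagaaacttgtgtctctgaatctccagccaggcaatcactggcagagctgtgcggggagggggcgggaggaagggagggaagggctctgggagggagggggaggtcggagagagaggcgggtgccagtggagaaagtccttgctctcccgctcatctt

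The capitals in the Foxp3 run are the STAT motif TTCNNNGAA, 139 to 131 bases before the later RefSeq start. A reverse-strand match to the NFAT motif TGGAAA overlaps it from base 140. These motifs were held by 7.01% and 18.6% of 32817 RefSeq windows of 250 bases. The Il1rl1 run has the Ikaros motif TGGGAA (21.6% of windows) and, on the reverse strand, the forkhead motif TGTTTAC (3.16%), 117 to 111 bases before the start. That was the single forkhead match in the 9 windows of 7 members, searched also for TGTTTGC (4.3%). The Runx motif TGTGGT (14%) ended at the base before that Il1rl1 start, past the stretch shown, while the AP-1 motif TGANTCA (6.75%) and the CRE motif TGACGTCA (1.55%) matched in none of the 9 windows. No motif matched in the Nrp1 run. A match describes the letters of the window and is not evidence that a factor binds there.

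Base composition differed among the members' windows. GC content was 37.6% and 46% before the 2 RefSeq starts of Foxp3 and 37.6% and 46.4% before those of Il1rl1, against a median of 52.4% over all windows. Nrp1, Gpr83 and Plagl1 stood at 64.4%, 66.8% and 70.4%, and Ebi3 and Capg at 56% and 57.6%. The 10 members lie on 8 chromosomes, with Il1rl1 and Ikzf2 on chromosome 1 and Plagl1 and Ikzf4 on chromosome 10.

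Foxp3, Ikzf2, Il1rl1 and Lrrc32 were far higher in CCR7loCD137hi than in CCR7hiCD137lo, while Ikzf4, Nrp1, Gpr83, Plagl1 and Ebi3 overlapped between the populations. Capg was slightly higher in both CCR7loCD137hi libraries. None of the members passed limma's test after Benjamini-Hochberg adjustment over all 10496 genes tested, in which 6 genes passed, 0.0572% of those tested, and 5 of these were higher in CCR7loCD137hi (0.0476%). At an unadjusted p under 0.05, 4 members were higher and none lower, where 8.13% of all genes tested reached that p, 4.64% higher and 3.49% lower. For 5 of the 10 members each CCR7loCD137hi library exceeded each CCR7hiCD137lo library, which held for 16.6% of all genes tested. The reverse held for none of the members and for 21.5% of all genes tested, and the groups overlapped for 5 members and for 61.9% of those genes. The log2 fold change was above 0 in 9 members (47.9% of all genes tested), at least 1 in 5 (2.76%) and at least 2 in 3 (0.781%). Those 3, Foxp3, Ikzf2 and Il1rl1, were under 1 FPKM in both CCR7hiCD137lo libraries and were tested only because of their level in CCR7loCD137hi. The members were chosen with earlier results of these data known, so their counts beside all genes are a description only. The members' median log2 fold change was 0.74, beside −0.012 over all genes tested. It was 0.56 without CCR7hiCD137lo replicate 1 and 1.33 without CCR7hiCD137lo replicate 2, the lowest and highest values with 1 library left out.

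**Figure D1:**
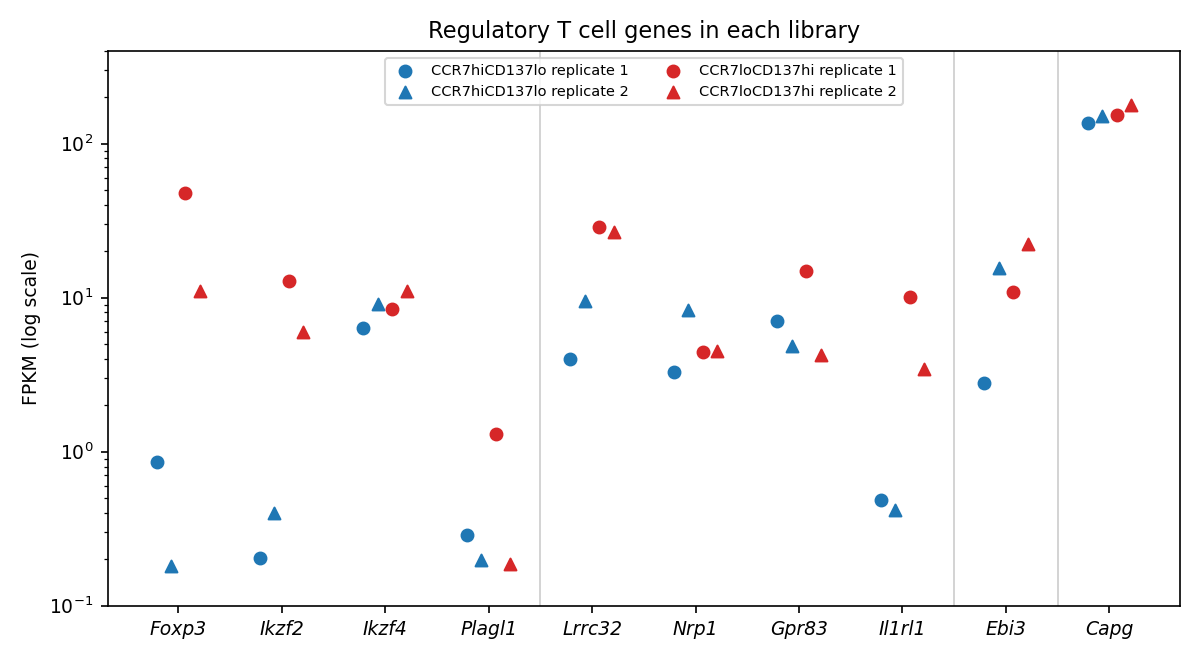
FPKM on a log axis for the 10 regulatory T cell genes, with 1 point per library, blue for CCR7hiCD137lo and red for CCR7loCD137hi, circles for replicate 1 and triangles for replicate 2. Grey lines separate transcription factors, surface proteins, the secreted subunit Ebi3 and the actin-capping protein Capg. Both red points of Foxp3, Ikzf2, Lrrc32 and Il1rl1 lie well above both blue ones.

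Among the transcription factors, Foxp3 (mm10 chromosome X, 7579676 to 7595243, plus strand) stood at 0.853 and 0.181 FPKM in replicates 1 and 2 of CCR7hiCD137lo, against 47.9 and 11.0 FPKM in those of CCR7loCD137hi. The lowest of these rests on about 9 fragments and the highest on about 2024. The groups did not overlap, and each group's replicate 1 was above its replicate 2, by 4.71 times in CCR7hiCD137lo and 4.37 times in CCR7loCD137hi. Set against the library of the same number, CCR7loCD137hi was 56.2 times higher in replicate 1 and 60.6 times higher in replicate 2. The log2 fold change on the log2(FPKM + 1) scale, which understates the change of low genes, was 4.03 (SE 0.723, limma adjusted p = 0.346). Without CCR7loCD137hi replicate 2, limma's adjusted p was 0.0487. That fit has 1 library in the group, takes the gene's spread from the CCR7hiCD137lo libraries alone and assumes that the lone library varies like them. Whether the counting used strand is not given in the sources used here, and exons of Foxp3 overlap, on the opposite strand, exons of Ccdc22 and Ppp1r3f, which were at 8.83 to 10.2 and at 3.41 to 5.25 FPKM over the 4 libraries. Exons of Flicr, on the same strand, and of Gm36995, on the opposite strand, also overlap those of Foxp3. Neither had a value under that symbol, so their part in the Foxp3 values was not tested. In such bulk samples, fewer cells with a transcript and less of it per cell cannot be told apart.

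Ikzf2, the gene for Helios (chromosome 1, 69531210 to 69685960, minus strand), had the same contrast. It was at 0.204 and 0.399 FPKM in CCR7hiCD137lo, against 12.9 and 5.94 FPKM in CCR7loCD137hi, on about 38, 47, 1362 and 340 fragments. Both CCR7loCD137hi libraries were above both others, by 63.1 times in replicate 1 and 14.9 times in replicate 2, and the log2 fold change was 2.92 (SE 0.382, limma adjusted p = 0.252). Its relative Ikzf4, the gene for Eos (chromosome 10, 128632415 to 128645993, minus strand), stood apart from it, at 6.30 and 9.08 against 8.42 and 10.98 FPKM. Those groups overlapped, and replicate 2 was the higher library in each, and the log2 fold change was 0.31 (SE 0.233, limma adjusted p = 0.783).

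Plagl1, a zinc finger factor gene (chromosome 10, 13090788 to 13131695, plus strand), was low throughout, at 0.287 and 0.197 FPKM in CCR7hiCD137lo, against 1.304 and 0.187 FPKM in CCR7loCD137hi. The library CCR7loCD137hi replicate 1 was the sole one above 1 FPKM, and the lowest value rests on about 6 fragments. With a mean under 1 FPKM it was the 1 member left out of the test, and its log2 difference of 0.41 became −0.06 without that library. Foxp3, Ikzf2 and Il1rl1 were also under 1 FPKM in both CCR7hiCD137lo libraries, and so were tested only because of their level in CCR7loCD137hi.

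Of the surface proteins, Lrrc32 (chromosome 7, 98494222 to 98501830, plus strand) was at 3.99 and 9.55 FPKM in CCR7hiCD137lo, against 28.8 and 26.8 FPKM in CCR7loCD137hi. The CCR7loCD137hi libraries were close to each other, and the spread lay in CCR7hiCD137lo. The log2 fold change was 1.99 (SE 0.381, limma adjusted p = 0.374), with ratios of 7.22 in replicate 1 and 2.81 in replicate 2.

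Il1rl1 encodes ST2, the receptor chain for the alarmin IL-33, known on tissue regulatory T cells, Th2 cells and mast cells. Its entry (chromosome 1, 40439649 to 40465414, plus strand) was at 0.486 and 0.415 FPKM in CCR7hiCD137lo, against 10.03 and 3.46 FPKM in CCR7loCD137hi. The CCR7hiCD137lo libraries were close to each other and both CCR7loCD137hi libraries were above them. The log2 fold change was 2.27 (SE 0.471, limma adjusted p = 0.405). The gene makes a membrane-bound and a soluble form, which a gene-level FPKM does not separate.

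Nrp1 and Gpr83, a coreceptor for semaphorins and a G protein-coupled receptor that are both used as markers of regulatory T cells, did not separate the populations. Nrp1 (chromosome 8, 128359073 to 128505475, plus strand) was at 3.28 and 8.28 FPKM in CCR7hiCD137lo, on either side of 4.45 and 4.47 FPKM in CCR7loCD137hi, for a difference of −0.21 on the log2 scale (SE 0.399, limma adjusted p = 0.919). Gpr83 (chromosome 9, 14860254 to 14869499, plus strand) was at 7.06 and 4.83 against 14.8 and 4.24 FPKM (0.41, SE 0.569, limma adjusted p = 0.881). The sign of each depended on 1 library. Nrp1 turned to 0.35 without CCR7hiCD137lo replicate 2, and Gpr83 to −0.39 without CCR7loCD137hi replicate 1.

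Ebi3 encodes the shared subunit of IL-27 and of IL-35, a cytokine of regulatory T cells (chromosome 17, 55952623 to 55957022, plus strand). It was at 2.80 and 15.5 FPKM in CCR7hiCD137lo, against 10.8 and 22.2 FPKM in CCR7loCD137hi, so the groups overlapped and replicate 2 was higher in each. The log2 fold change was 1.06 (SE 0.786, limma adjusted p = 0.776), and 1.64 between the libraries numbered 1 against 0.49 between those numbered 2. Without CCR7hiCD137lo replicate 1 it was 0.00. Its partner subunits, Il12a for IL-35 and Il27 for IL-27, were listed at 0 in all 4 libraries.

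Capg, an actin filament-capping protein gene (chromosome 6, 72544439 to 72562980, plus strand), was the most abundant member, at 136.2 and 150.3 FPKM in CCR7hiCD137lo, against 152.5 and 178.4 FPKM in CCR7loCD137hi. The groups did not overlap, yet the highest CCR7hiCD137lo and lowest CCR7loCD137hi libraries were almost level. The log2 fold change was 0.20 (SE 0.138, limma adjusted p = 0.760). Of 6 tested relatives in the gelsolin and capping protein families, none was at an unadjusted p under 0.05, and the capping subunit genes Capzb and Capza1 were at 184.1 ± 0.295 and 164.1 ± 3.69 FPKM (SD, n = 2) in CCR7hiCD137lo, against 185.2 ± 4.13 and 147.0 ± 6.71 FPKM in CCR7loCD137hi.

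**Figure D2:**
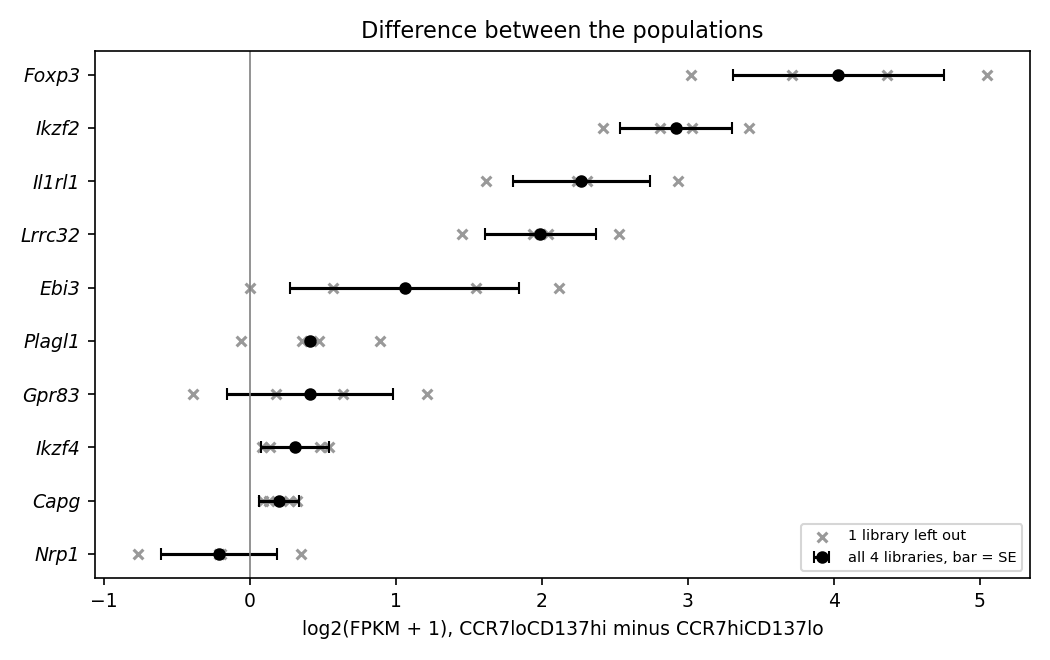
Log2(FPKM + 1) difference, CCR7loCD137hi minus CCR7hiCD137lo, for each of the 10 genes. Black points are the estimates from all 4 libraries with their SE (none for Plagl1, which was not tested), and grey crosses are the estimates with 1 library left out. All crosses of Foxp3, Ikzf2, Il1rl1 and Lrrc32 lie above 0, from 1.45 for Lrrc32 to 5.05 for Foxp3, while those of Nrp1, Gpr83 and Plagl1 fall on both sides.

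The order of the members by level differed between the populations. In CCR7hiCD137lo, Capg was followed by Ebi3, Ikzf4, Lrrc32, Gpr83 and Nrp1, at means of 9.17 to 5.78 FPKM with overlapping libraries, and then by Foxp3, Il1rl1, Ikzf2 and Plagl1, at 0.517 to 0.242 FPKM. The Foxp3 libraries spanned those of the last 3, while both Il1rl1 libraries were above those of Ikzf2 and Plagl1. In CCR7loCD137hi, Foxp3 (29.4 ± 26.1 FPKM, SD, n = 2) and Lrrc32 (27.8 ± 1.41 FPKM) came after Capg. The Foxp3 libraries overlapped those of Lrrc32 and of Ebi3, the next in order. Ikzf4, Gpr83 and Ikzf2 then followed at 9.70, 9.54 and 9.42 FPKM and did not differ beyond their spread.

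The CCR7loCD137hi libraries differed from each other in these genes. Replicate 1 was at least 2 times replicate 2 for 5 members, Plagl1 (6.97 times), Foxp3 (4.37), Gpr83 (3.504), Il1rl1 (2.90) and Ikzf2 (2.17), a threshold chosen after the values were seen, and 2.23% of all genes tested passed it. In the other direction Ebi3 passed alone, with replicate 1 at 0.487 of replicate 2, where 4.29% of genes did. Lrrc32 (1.07) and Nrp1 (0.995) were level between these libraries. Between the CCR7hiCD137lo libraries, Foxp3 alone had replicate 1 at least 2 times replicate 2 (1.25% of genes). Ebi3, Nrp1 and Lrrc32 passed the threshold the opposite way, with replicate 1 at 0.180, 0.396 and 0.418 of replicate 2. The share of all genes passing that way was not counted. Between libraries of the same number, all 10 members were higher in CCR7loCD137hi in replicate 1 and 7 were in replicate 2, where Nrp1, Gpr83 and Plagl1 were lower (log2 differences −0.76, −0.15 and −0.01). The shares of all genes by replicate number were not counted, so these counts are a description only.

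**Figure D3:**
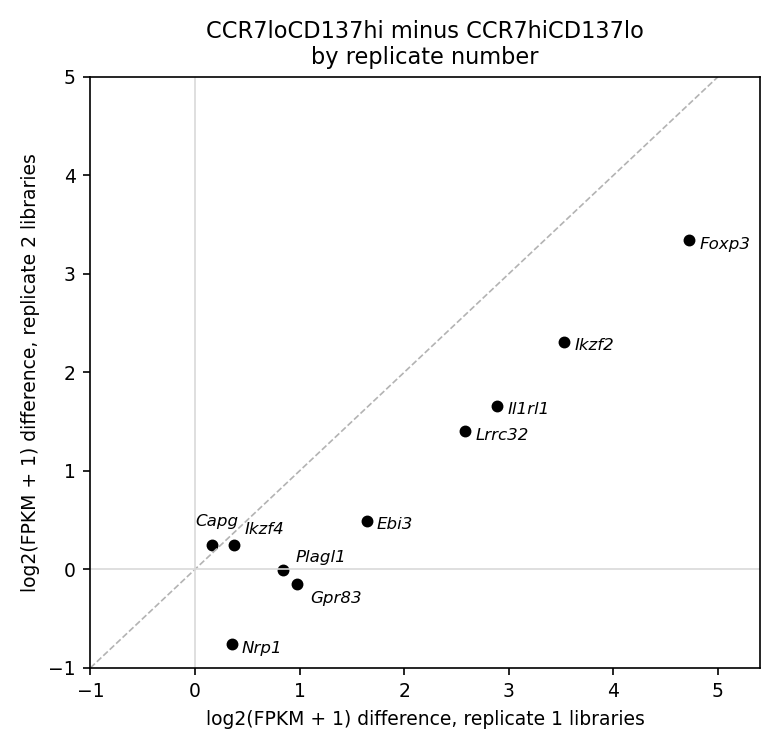
Log2(FPKM + 1) difference between CCR7loCD137hi and CCR7hiCD137lo for the libraries numbered 1 (horizontal axis) and 2 (vertical axis), with 1 point per gene and a dashed line of equality. Every member other than Capg lies below the line, Foxp3 at 4.72 and 3.34, Ikzf2 at 3.53 and 2.31. The share of all genes below the line was not counted.

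The B cell list and the CD8 T and NK list each summed highest in CCR7loCD137hi replicate 1, the library with the highest Foxp3. The 6 B cell markers summed to 0.0917 and 0.145 FPKM in CCR7hiCD137lo and to 5.23 and 0.571 FPKM in CCR7loCD137hi, replicates 1 and 2, with Cd79b and Cd79a at 1.38 and 1.14 FPKM in that library. The 6 CD8 T and NK markers summed to 16.3 and 31.1 FPKM against 57.4 and 48.4 FPKM, led by Eomes and Klrk1, which activated CD4 T cells can also express. Cd8a was at 3.68 FPKM and Ncr1 at 1.91 FPKM in CCR7loCD137hi replicate 1, against 0.218 and 0.251 FPKM in replicate 2, and both names were chosen after their values were seen. The part of such transcripts in the members' values was not tested.

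Some members are also known from myeloid cells, platelets, mast cells or ILC2, and markers of these cells were summed in each library. Of 10 macrophage and dendritic cell markers, which bear on Capg, Nrp1 and Ebi3, Csf1r, Flt3 and Siglech were listed at 0 in every library, and the sum ran from 0.139 to 0.144 FPKM in CCR7hiCD137lo and from 0.480 to 1.07 FPKM in CCR7loCD137hi. Platelets carry GARP, and Pf4, Gp9 and Ppbp of 6 platelet markers were listed at 0 in every library, the list summing to 0.348 and 0.721 against 0.480 and 0.919 FPKM. Of 8 mast cell and ILC2 markers, Ms4a2 was at 0 throughout. Their sums were 5.61 and 1.78 against 4.95 and 4.27 FPKM, most of it Kit in 3 libraries. Kit, the 1 marker of this list that was tested, was at 5.49 and 1.72 against 3.16 and 1.08 FPKM. Its groups overlapped, and its log2 fold change was −0.52 (limma adjusted p = 0.854). Without Kit the other 7 summed to 0.114 and 0.0602 FPKM in CCR7hiCD137lo, against 1.80 and 3.19 FPKM in CCR7loCD137hi. The rest of the list thus summed higher in the population where Il1rl1 was higher, while Kit did not separate the populations. Cpa3, Mcpt4, Mcpt8, Fcer1a and Il17rb, 5 of these 7, were listed at 0 in both CCR7hiCD137lo libraries and above 0 in both CCR7loCD137hi libraries. The highest was Cpa3, a mast cell protease gene, at 0.892 and 2.15 FPKM. Mcpt4, Mcpt8, Fcer1a and Il17rb were named after their values were seen. The share of all genes at 0 in just the CCR7hiCD137lo libraries was not counted. The part of these cells in the members' values was not tested.

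Other genes of the regulatory T cell programme were mostly higher in CCR7loCD137hi as well. Of 22 listed genes, 18 were tested and none passed after adjustment. At an unadjusted limma p under 0.05, 12 were higher and 1 lower, beside 4.64% and 3.49% of all genes tested. The median log2 fold change was 0.84. Of the higher ones, Il10, Tigit, Ccr8 and Itgae (the last named after its values were seen) were under 1 FPKM in both CCR7hiCD137lo libraries. They were tested only because of their level in CCR7loCD137hi. Il10, an immunosuppressive cytokine gene, was at 0.658 and 0.278 against 22 and 10.3 FPKM. Tigit, an inhibitory receptor gene, was at 0.0638 and 0.708 against 7.91 and 10.8 FPKM, and Ccr8, a chemokine receptor gene, at 0.102 and 0.242 against 2.61 and 1.99 FPKM. Their groups did not overlap, and neither did those of Tnfrsf18, the gene for GITR, at 142.3 and 183.0 against 264.3 and 270.3 FPKM. Log2 fold changes were 3.47, 2.93, 1.49 and 0.72 (limma adjusted p = 0.213, 0.200, 0.337 and 0.431). The lower gene was Socs2, which restrains cytokine signalling, at 138.9 and 138.2 against 108.2 and 102.5 FPKM. Il2ra, the gene for CD25 and a surface marker of regulatory T cells that activated T cells share, was at 537.9 and 518.4 against 548.8 and 345.5 FPKM, with overlapping groups. Both were named after their values were seen.

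Genes that regulatory T cells are known to express at low levels went the other way in part. Of 9 tested, 6 were lower and none higher at an unadjusted p under 0.05, beside 3.49% and 4.64% of all genes tested. None passed after adjustment, and the median was −0.59. Tcf7, a factor of naive and memory T cells, was at 71.1 and 61.6 FPKM in CCR7hiCD137lo, against 18.1 and 15.4 FPKM in CCR7loCD137hi, for a difference of −1.92 on the log2 scale (SE 0.153, limma adjusted p = 0.0876). Igfbp4, Dapl1 and Actn1, which are also high in naive T cells, had log2 fold changes of −2.57, −2.25 and −1.18 (limma adjusted p = 0.218, 0.315 and 0.214). These genes also mark CCR7-expressing naive and memory cells. The sort was on CCR7 and CD137, and its part in these values was not tested. Il7r, the gene for CD127 and a standard low marker of regulatory T cells, was at 18.3 and 50.9 against 35.4 and 76.6 FPKM, for a difference of 0.75 on the log2 scale (SE 0.607, limma adjusted p = 0.8004). Its groups overlapped, with replicate 2 higher in each. It was named after its values were seen. Satb1 and Pde3b, which Foxp3 is known to repress, were also named after their values were seen and had log2 fold changes of 0.01 and −0.18 with limma adjusted p = 0.993 and 0.788.

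Factors that act on Foxp3 transcription had a median log2 fold change of −0.15. Of 22 tested, 2 were higher and 1 lower at an unadjusted p under 0.05, beside 4.64% and 3.49% of all genes tested. None passed after adjustment, and 6 had a log2 fold change above 0 (47.9% of all genes tested). Both CCR7loCD137hi libraries lay below both CCR7hiCD137lo libraries for 10 (21.5%) and above them for 3 (16.6%). Nr4a1, a nuclear receptor induced by T cell receptor signals, was at 8.83 and 6.92 against 30.7 and 29.6 FPKM (log2 fold change 1.82, SE 0.160, limma adjusted p = 0.116), with groups far apart. Its relative Nr4a2 was at 0.702 and 0.326 against 5.04 and 1.45 FPKM, higher in replicate 1 of CCR7loCD137hi as Foxp3 was. Under 1 FPKM in both CCR7hiCD137lo libraries, Nr4a2 was tested only because of its level in CCR7loCD137hi. Dnmt1, the maintenance DNA methyltransferase gene, was the 1 factor lower at that unadjusted p, at 108.0 and 111.5 against 85.0 and 91.7 FPKM.

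Relatives of the members had their own levels. Of 6 tested forkhead P, Ikaros and Plag genes, 2 were lower at an unadjusted p under 0.05 (3.49% of all genes tested). None passed after adjustment (median 0.04). Foxp1, a factor of naive T cells, was at 26.9 and 27.6 against 15.4 and 14.7 FPKM (log2 fold change −0.81, limma adjusted p = 0.296), the opposite direction to Foxp3, and Ikzf1 was at 96.7 and 89.4 against 68.9 and 70.6 FPKM (−0.41, limma adjusted p = 0.534), opposite to Ikzf2. Of 11 tested partners and ligands of the members (median 0.21), none was lower at that p (3.49% of all genes tested) and 2 were higher (4.64%). These were Lrrc33, a relative of Lrrc32 that also anchors latent TGF-beta, at 17.4 and 18.1 against 26.0 and 24.9 FPKM, and Sema4a, a semaphorin that binds Nrp1, at 28.2 and 33.6 against 41.0 and 50.6 FPKM (limma adjusted p = 0.475 and 0.553).

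**Figure D4:**
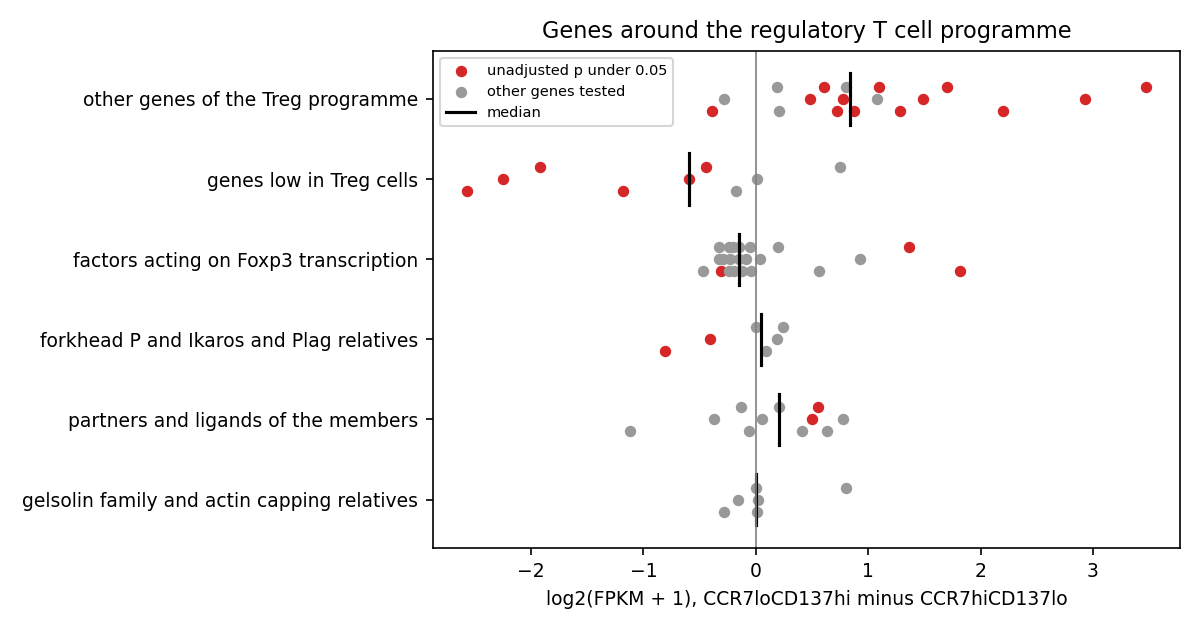
Log2(FPKM + 1) difference, CCR7loCD137hi minus CCR7hiCD137lo, for each tested gene of 6 lists around the regulatory T cell programme. Red points have an unadjusted limma p under 0.05, grey points do not, and black bars are list medians, from 0.84 for other programme genes to −0.59 for genes low in regulatory T cells.

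The 5 genes whose profile over the 4 libraries was most like that of Foxp3 were Il10, Prf1, Gzma, Spp1 and Serpina3g. Likeness was the Euclidean distance between centred log2(FPKM + 1) profiles, here over 7773 genes with a mean of at least 5 FPKM, and is a description without a test. Each of the 5 genes was under 5 FPKM in both CCR7hiCD137lo libraries, and so met that minimum only through its level in CCR7loCD137hi. Distances were 0.927 for Il10, 1.04 for Prf1, 1.25 for Gzma, 1.25 for Spp1 and 1.296 for Serpina3g. Prf1 and Gzma, which encode the cytotoxic proteins perforin and granzyme A, stood at 0.523 and 0.953 against 29.8 and 8.61 FPKM and at 0.215 and 0.114 against 92.2 and 19.2 FPKM. All 5 were higher in replicate 1 than in replicate 2 of CCR7loCD137hi. Among the members, Ikzf2 was nearest to Foxp3 (1.46), then Il1rl1 (1.88) and Lrrc32 (2.74), and Nrp1 was farthest (4.65).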

How the data were processed

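The authors deposited FPKM values in 1 table for each library, with Cufflinks gene columns per the file headers. The value column is headed by a sample name alone, and its unit is read from that layout. Cufflinks 2.0.2, TopHat 1.3.2, Bowtie 0.12.8 and the mm10 build are named, without roles, per the submitters' processing notes. Libraries came from TRIzol RNA and a TruSeq Stranded mRNA kit, per the labels' protocols. The annotation, the use of strand and any scaling between libraries: not given in the sources used here.

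The highest-mean entry of each symbol was kept. Genes with a mean of at least 1 FPKM were put on the log2(FPKM + 1) scale and tested in R 4.3.3 by limma 3.58.1 (variance trend, two-sided, Benjamini-Hochberg adjustment, threshold 0.05, residual df 2, prior df 2.54), because exact permutation of 2 against 2 libraries gives no p under 0.333. Depth assumed 200 nt fragments and fragment numbers the longest GENCODE M21 coding transcript, so both are approximate. Start coordinates were raised by 1. Python 3.11.15 and matplotlib 3.10.9 made tables and plots.

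All members were named. From each other list, up to 4 genes with the lowest unadjusted p under 0.05 were named, or the 2 most expressed where fewer than 2 had one. Genes with Mir, Snor or Rnu symbols were left out of the search for profiles like that of Foxp3. The members and lists were chosen with earlier results of these data known. Alternatives were other pseudocounts, filters and scalings, no trend, a replicate block and leaving out each library.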

Additional observations from a re-analysis of the deposited data

How the results depend on the processing

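Of 113 rounded values of a member under an alternative, 109 kept the sign. The Ebi3 value of 0.00 given below was not counted among the 109, though it is not a change of sign. With 1 library left out, Nrp1 ran from −0.77 to 0.35 (above 0 without CCR7hiCD137lo replicate 2), Gpr83 from −0.39 to 1.21 and Plagl1 from −0.06 to 0.89 (both below 0 without CCR7loCD137hi replicate 1), and Ebi3 was at 0.00 without CCR7hiCD137lo replicate 1. The sole member call was Foxp3 without CCR7loCD137hi replicate 2 (log2 fold change 5.05, limma adjusted p = 0.0487, 3.02 without replicate 1), a fit whose spread for the gene comes from CCR7hiCD137lo alone. The members' median ran from 0.56 to 1.33 with 1 library left out and was 1.06 with a pseudocount of 0.1 FPKM. With a pseudocount of 0.1 FPKM Plagl1 moved to 0.91. Genes called numbered 1 with no filter (1359 at an unadjusted p under 0.05), 2 each with quantile normalization, with no variance trend and with short RNA genes left out, and 12 to 30 with 1 library left out (334 to 842 at an unadjusted p under 0.05). A minimum mean of 5 FPKM left 7 members. Of these, 2 were at an unadjusted p under 0.05, as were 641 of all 7882 genes then tested. For 3 of the 7 members CCR7loCD137hi lay above CCR7hiCD137lo, a share not counted over all genes at that filter. With 1 library left out, CCR7loCD137hi lay above CCR7hiCD137lo for 5 to 8 members and for 23.3% to 37.4% of all genes tested, and below it for 0 to 2 members (Nrp1 without CCR7hiCD137lo replicate 1, Gpr83 and Plagl1 without CCR7loCD137hi replicate 1) and for 32.1% to 39.5% of all genes tested. The causes were not tested.

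With the replicate block, which leaves 1 residual degree of freedom, 42 genes were called and 2280 were at an unadjusted p under 0.05. No member was called (lowest adjusted p = 0.0636). Whether libraries of the same number share a mouse or culture is not given. Same-numbered libraries deviated together with r = 0.214 across 10496 genes, which are not independent. With 2 libraries a group, and the shallowest at about 6310000 fragments, low members such as Plagl1 rest on few fragments.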
